A study of Mus musculus with 27 samples.

Results

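Immediate early genes are genes whose mRNA can be made within minutes of a signal, without new protein synthesis. The 10 described here were Egr1, Egr2, Egr3, Ier2, Ier3, Ier5, Nr4a1, Arc, Rhob and Zfp36, taken by gene symbol from the 38352 gene rows of the deposited tables. Each symbol occurred on a single row. Of the 10, 8 reached 1 FPKM (fragments per kilobase of transcript and library depth) in at least 3 libraries and were tested among 13614 genes. Egr2 and Egr3 reached 1 FPKM in no library and were not tested in the fit used below.

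All groups were of wild-type E14Tg2a cells, an established line of mouse embryonic stem cells kept undifferentiated with LIF and 2i supplement in serum on gelatin. Treated cells received 500 µM hydrogen peroxide for 30 minutes, by the treatment protocol, after which they were moved to medium conditioned by untreated cells. They were collected at 0.5, 2, 4, 6, 8, 10 and 24 h, against untreated cells at 0 h and at 24 h, with 3 libraries in each of the 9 groups. The labels describe 3 independent time courses of this 1 line. No group had only the change of medium, so from 2 h on peroxide and medium cannot be told apart. The comparisons of 0.5 to 10 h all share the untreated 0 h libraries.

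As background, many immediate early promoters are switched on through MAP kinases, which act on serum response factor (SRF) at CArG boxes and on the transcription factor CREB at cyclic AMP response elements. Their mRNAs are often short-lived, so levels can rise and fall within hours. The products include transcription factors that start a further wave of genes and proteins that shut the response down. Serum and LIF, both present in the medium here, are known inducers of several of these genes. The medium also held the supplement named above beside LIF. Its effect on MAP kinase signalling and on the starting levels of these genes was not tested.

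The members lie on 9 chromosomes of the mouse GRCm38 build (GENCODE M21). Egr2 spans chr10:67535475-67542188 and Egr3 chr14:70077203-70082614, both on the plus strand. Egr1 is on chromosome 18. Ier2 spans chr8:84661331-84662852, Ier5 chr1:155096361-155099636 and Ier3 chr17:35821684-35822923, of which the last alone is on the plus strand. Nr4a1 spans chr15:101254269-101274795 on the plus strand, and Arc chr15:74669083-74672570 on the minus strand of the same chromosome. Rhob spans chr12:8497661-8500009 and Zfp36 chr7:28376784-28380253, both on the minus strand. The antisense gene Gm44710 overlaps Zfp36 on the opposite strand. It was listed at 0 to 0.500 FPKM, and reads of the 2 genes cannot be told apart with certainty because no source used here states whether counting was by strand.

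The libraries were checked before the members were compared. Relative depth, estimated from the smallest steps between low values, ran from 0.979 to 1.10 times that of untreated 0 h replicate 1. Pluripotency markers were present in all 27 libraries, with Pou5f1 at 402 to 938 FPKM. The 18 hepatocyte markers summed to 55.2 to 79.2 FPKM at 0.5 h, against 3.82 to 10.1 FPKM in untreated 0 h cells, and to 4.35 to 4.55 FPKM in treated 24 h cells, against 50.7 to 69.2 FPKM in untreated 24 h cells. They were also at 55.9 FPKM in 6 h replicate 3 and at 73.5 and 63.6 FPKM in 8 h replicates 1 and 2. The 5 astrocyte markers summed to 1.42 to 2.10 FPKM in untreated 0 h cells and 6.68 to 7.98 FPKM in untreated 24 h cells. In treated cells the sums at 0.5, 2 and 4 h were 6.00 to 6.69, 2.35 to 6.69 and 1.31 to 1.72 FPKM. At 6, 8, 10 and 24 h they were 1.54 to 8.64, 7.15 to 8.92, 2.24 to 7.73 and 1.84 to 6.77 FPKM. Of the hepatocyte markers, Alb reached 28.3 FPKM and was listed at 0 in 6 libraries. The part of hepatocyte and astrocyte RNAs in the results was not tested. In 4 libraries, called divergent below, the ribosomal protein mRNAs and GC-rich transcripts stood apart: untreated 0 h replicate 3, 2 h replicate 1, 8 h replicate 3 and 10 h replicate 3. Their median ribosomal protein shifts were 0.904, 0.799, 0.481 and 0.366 on the log2(FPKM + 1) scale, and 2 of the untreated 24 h libraries had shifts of 0.401 and 0.45. The 3 libraries at 4 h had shifts of 0.440, 0.277 and 0.354, so that this group as a whole was shifted as far as some divergent libraries, and the part of this shift in the 4 h results was not tested. The members' values are therefore also given without these divergent libraries wherever that changed a call.

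The 8 tested genes did not move as a block. Egr1 was high at 2 h and fell steeply by 4 h. Nr4a1 and Arc climbed for several hours, while Ier3 and Rhob were at their lowest at 4 h and Rhob was above its starting level at 8 and 10 h. Zfp36 was high at 2 h, at its starting level at 4 h and high again from 6 h. Ier5 was higher from 8 h on, and Ier2 passed the test in no comparison with untreated cells.

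**Figure D1:**
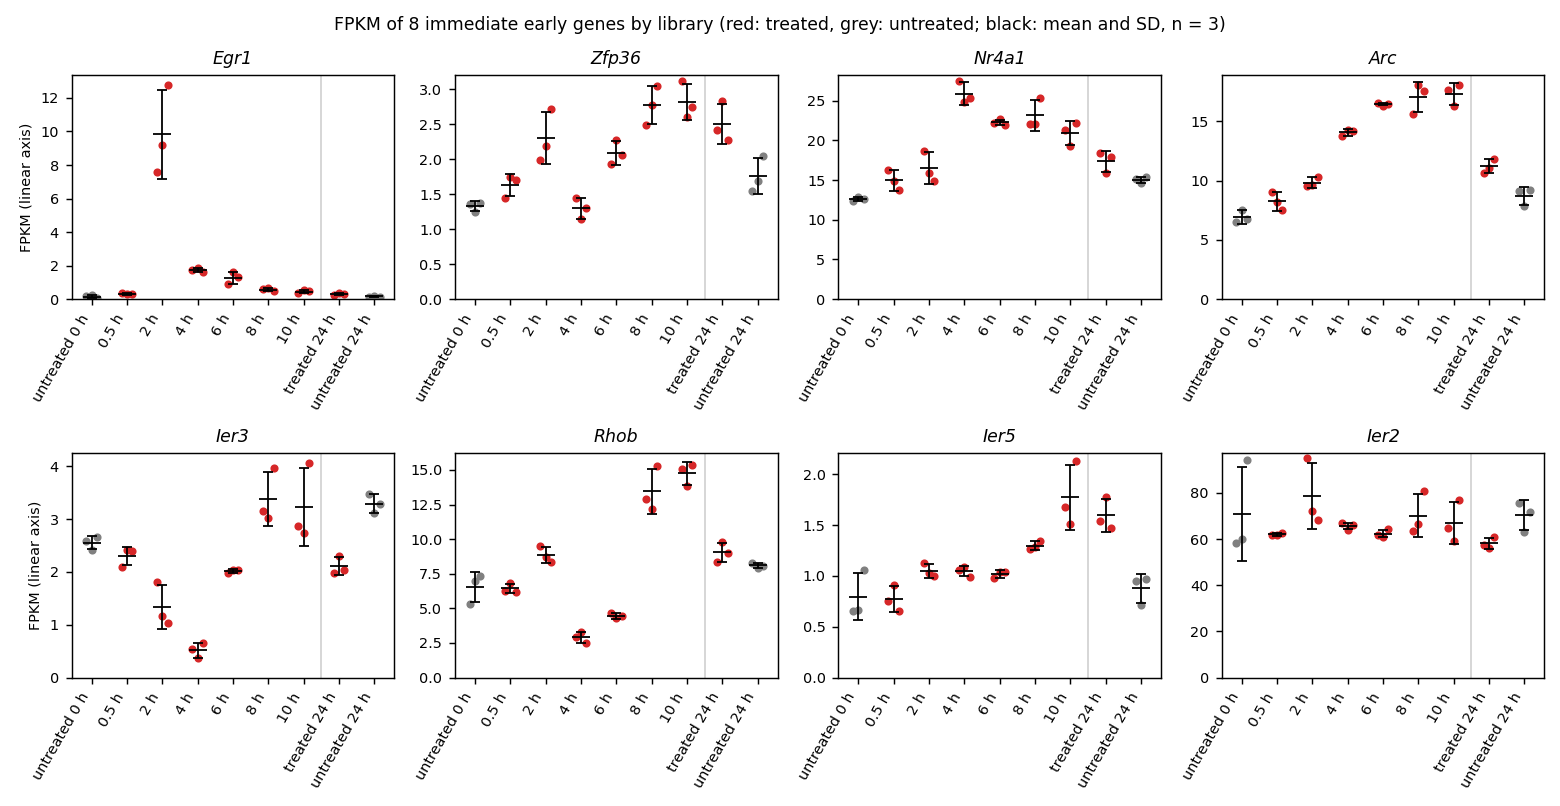
FPKM (linear y axes that start at 0, a scale of its own for each gene) of the 8 tested genes in each library, in red for treated and grey for untreated cells, with the mean and SD of 3 libraries in black. Egr1 reached 7.56 to 12.8 FPKM at 2 h, Ier3 and Rhob were lowest at 4 h, and Arc stayed above 15 FPKM from 6 to 10 h.

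Counted by comparison with untreated 0 h cells, no tested member passed at 0.5 h, 5 of 8 passed at 2 h, 5 at 4 h, 5 at 6 h, 7 at 8 h and 6 at 10 h. The test was limma's on log2(FPKM + 1), with p-values adjusted by Benjamini-Hochberg over all 13614 genes and passed at an adjusted p under 0.05. Of all genes tested, 0.0808% passed at 0.5 h, 1.07% at 2 h, 26.3% at 4 h, 42.3% at 6 h, 40.7% at 8 h and 31.7% at 10 h. The 2 h count was thus made against a small background, and the counts at 4 and 6 h against one in which a large share of genes passed. At 0.5 h, 2 members (Arc and Nr4a1) had an unadjusted p under 0.05 by limma, as did 1352 of all genes. Egr1 passed the expression filter through treated libraries alone and Ier5 through 15 treated libraries and 1 untreated library, that is, through the groups in which they were high. Their calls carry that limit, and the counts cover the members that passed and not all 10.

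By direction, 4 members were higher and 1 lower at 2 h, where 0.499% of all genes were higher and 0.566% lower. At 4 h, 3 were higher and 2 lower, against 14.2% and 12.1% of all genes. At 6 h, 4 were higher and 1 lower, against 22.3% and 20% of all genes. All 7 that passed at 8 h and all 6 that passed at 10 h were higher, against 29.2% and 22.2% of all genes higher and 11.6% and 9.43% lower. The median change of the 8 tested members was 0.38 at 2 h, 0.09 at 4 h, 0.29 at 6 h, 0.57 at 8 h and 0.66 at 10 h, against 0.02, 0.0078, 3e-04, 0.11 and 0.11 over all genes. At 24 h it was 0.18, against 0.07 over all genes. Median-of-ratios scaling lowered the median of all genes by 0.12 at 8 h, from 0.11 to -0.0044, and by 0.10 at 10 h, and the 8 h and 10 h values are to be read against that shift.

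**Figure D2:**
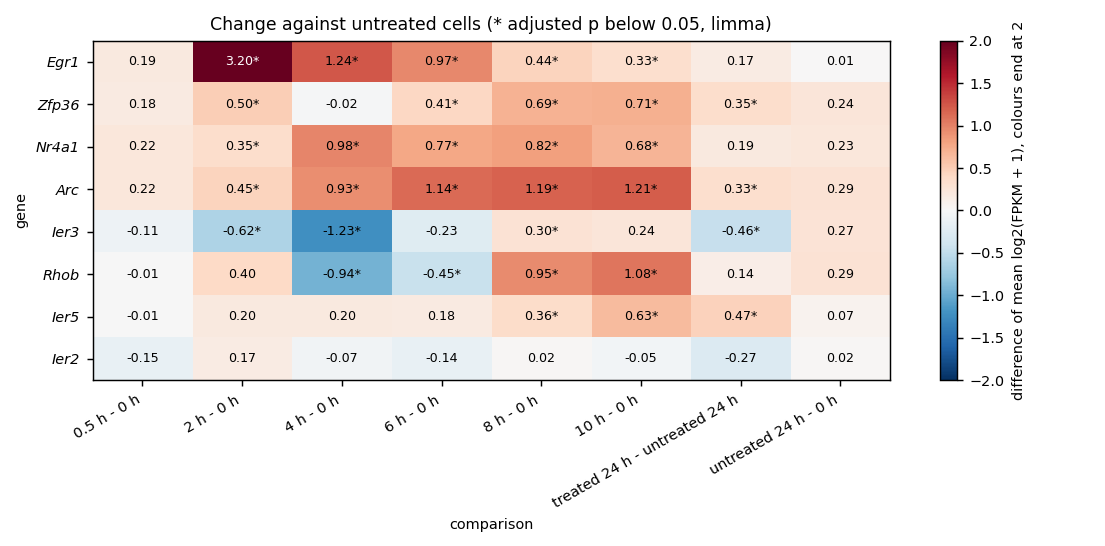
Difference of mean log2(FPKM + 1) for the 8 tested genes (rows) in the 7 comparisons of treated with untreated cells and in the comparison of untreated cells at 24 h and 0 h (columns); an asterisk marks an adjusted p below 0.05 by limma. At 4 h Ier3 (-1.23) and Rhob (-0.94) were the genes that passed with negative values, and Rhob was at 0.95 and 1.08 at 8 and 10 h.

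Egr1 encodes a zinc finger transcription factor that is induced by growth factors and many stresses. It stood at 7.56, 9.21 and 12.8 FPKM in the 3 libraries at 2 h, against 0.177, 0.259 and 0.0472 FPKM in the untreated 0 h libraries. Every 2 h library was far above every untreated library, with a ratio of means of 61.1. The difference was 3.20 on the log2(FPKM + 1) scale (SE 0.13), a scale that understates the change of a gene starting near 0, with a limma adjusted p of 6.51e-13. It passed in all 18 alternative settings run. At 0.5 h, Egr1 stood at 0.285 to 0.384 FPKM, above the 3 untreated values but not past the test (adjusted p = 0.476, limma).

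After 2 h Egr1 fell. It averaged 1.74 ± 0.134 FPKM at 4 h and 1.28 ± 0.352 FPKM at 6 h, against 0.161 ± 0.107 FPKM in untreated 0 h cells (SD, n = 3 each). The differences from untreated cells were 1.24 and 0.97, with limma adjusted p of 1.59e-07 and 2.31e-06. At 8 h it averaged 0.572 FPKM and at 10 h 0.460 FPKM, still above each of the untreated 0 h libraries. The 8 h difference was 0.44 (adjusted p = 0.00853, limma) and fell to 0.19 under a correction for GC content and transcript length (adjusted p = 0.202). The 10 h difference of 0.33 lay on the threshold (adjusted p = 0.0499, limma). It was lost without any 1 of untreated 0 h replicates 1 and 3 and the 3 libraries at 10 h (adjusted p = 0.0666 to 0.187) and without the 4 divergent libraries (adjusted p = 0.136).

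Egr2, a related factor known for its role in myelination, stayed below 1 FPKM throughout. It was listed at 0.171, 0.286 and 0.390 FPKM at 2 h, against 0, 0.0530 and 0.0113 FPKM in untreated 0 h cells. The 3 values at 2 h were above those of all other libraries, whose highest was 0.105 FPKM. In the authors' deposited table Egr2 was marked as changed at 2 h, with a q-value of 0.0291. Egr3, the third member of the family, was listed at 0.0255 to 0.0707 FPKM at 2 h, against 0 to 0.0445 FPKM in untreated 0 h cells. Its values overlapped between these groups, and its highest value in any library was 0.132 FPKM at 10 h.

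**Figure D3:**
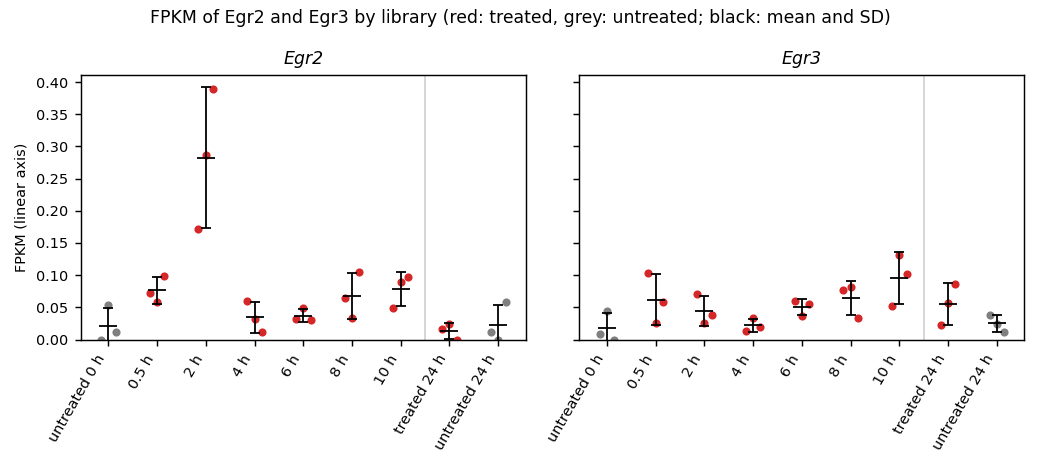
FPKM (linear y axis that starts at 0, shared by both panels) of Egr2 and Egr3 in each library, in red for treated and grey for untreated cells, with the mean and SD of 3 libraries in black. Egr2 reached 0.171 to 0.390 FPKM at 2 h, while Egr3 was listed at 0.132 FPKM or less in every library.

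The promoter of Egr2 is shown because its mRNA stood out at the same time as that of Egr1. Promoter sequences came from RefSeq (GRCm38.p6), as the 250 bases before an annotated transcription start. Windows were found for 6 of the 10 members, namely Egr2, Ier3, Ier5, Nr4a1, Rhob and Zfp36. Both strands were searched for the TATA box (TATAAA), the CArG box, the cyclic AMP response element (TGACGTCA) and its 5-base core (TGACG, which lies within it), the AP-1 site (TGANTCA), the EGR site (GCGNGGGCG), the NF-kB site and the GC box (GGGCGG, which can overlap the EGR site). Matches other than to the GC box are in capitals. RefSeq gives 5 such windows for Egr2. The one shown, chr10:67537619-67537868 (plus strand), was picked after its matches were seen. It lies within an intron of its longer transcripts and reads 5′ to 3′:

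Egr2: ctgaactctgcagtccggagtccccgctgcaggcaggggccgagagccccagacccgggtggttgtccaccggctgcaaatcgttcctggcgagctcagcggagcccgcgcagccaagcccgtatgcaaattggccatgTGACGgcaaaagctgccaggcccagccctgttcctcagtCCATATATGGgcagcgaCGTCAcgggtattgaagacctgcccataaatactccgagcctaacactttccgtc

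It held a CArG box at bases -72 to -63 from the start and 2 TGACG cores, at -111 to -107 and, on the minus strand, at -55 to -51. The window before the first start of Egr2 held neither motif. Of all 32851 windows of this length, 1.47% held a CArG box and 17.8% a TGACG core. A match is a match of letters and not a measured binding site.

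Nr4a1 encodes an orphan nuclear receptor (Nur77) that is induced rapidly in many cell types. It stood at 18.7, 15.9 and 14.9 FPKM in the 2 h libraries, against 12.4, 12.9 and 12.6 FPKM in untreated 0 h cells. All 3 were above the untreated libraries. The 2 h difference was 0.35 (SE 0.08; adjusted p = 0.0344, limma). It was lost without any 1 of untreated 0 h replicates 1 and 2 and 2 h replicates 1 and 2 (adjusted p = 0.0728 to 0.172). It was also lost under median-of-ratios scaling (adjusted p = 0.114), with both untreated groups as control (0.24; adjusted p = 0.21), without the 4 divergent libraries (adjusted p = 0.0757) and in a fit of only the libraries compared.

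The higher level came later. Nr4a1 stood at 27.5, 24.8 and 25.3 FPKM at 4 h, which is the highest group mean of the gene, 25.9 ± 1.45 FPKM, against 12.6 ± 0.255 FPKM in untreated 0 h cells (SD, n = 3 each). The ratio of means was 2.05 and the difference 0.98 (adjusted p = 8.07e-09, limma). The means were 22.2, 23.1 and 20.9 FPKM at 6, 8 and 10 h, and each of these comparisons passed in all 18 alternative settings run. Nr4a1 therefore peaked after Egr1 had fallen, and its step of 0.62 between 2 and 4 h ran opposite to the step of -1.96 of Egr1 (limma adjusted p of 6.77e-06 and 2.93e-10).

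The Nr4a1 window chr15:101266596-101266845 (plus strand) lies upstream of the start of its main transcript and is shown for comparison with that of Egr2:

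Nr4a1: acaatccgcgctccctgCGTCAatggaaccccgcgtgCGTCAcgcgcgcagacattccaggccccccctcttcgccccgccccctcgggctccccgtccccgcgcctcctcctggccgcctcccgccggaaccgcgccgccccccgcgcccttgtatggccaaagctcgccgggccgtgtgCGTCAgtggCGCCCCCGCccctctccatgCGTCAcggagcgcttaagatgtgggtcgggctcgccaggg

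It held 4 TGACG cores, all on the minus strand, at bases -233 to -229, -213 to -209, -69 to -65 and -40 to -36. An EGR site lay at -60 to -52, a motif present in 4.70% of all windows. No CArG box matched in this window.

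Arc encodes an activity-regulated cytoskeletal protein best known at neuronal synapses. It stood at 9.56, 9.61 and 10.4 FPKM at 2 h, against 6.48, 7.56 and 6.79 FPKM in untreated 0 h cells. The groups did not overlap, and the difference was 0.45 (SE 0.07; adjusted p = 0.00158, limma). It was lost when both untreated groups together served as control (adjusted p = 0.0668) and in a fit of only the libraries compared. From there Arc kept a higher level, with means of 14.1, 16.5, 17.1 and 17.3 FPKM at 4, 6, 8 and 10 h. At 10 h the 3 libraries stood at 17.6, 16.3 and 18.1 FPKM, and the ratio of means to untreated 0 h cells was 2.50 (difference 1.21; adjusted p = 2.09e-10, limma). The comparisons of 4 to 10 h each passed in all 18 alternative settings run. The 7 neuron markers, of which only Camk2a reached 1 FPKM in any library, summed to 3.95 to 4.09 FPKM at 10 h, against 2.23 to 3.93 FPKM in untreated 0 h cells, and their part in the result was not tested.

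Ier3 encodes a small stress-inducible protein linked to cell survival and to ERK signalling. Its mRNA was lower, not higher, at 2 h, the sampled time with the highest Egr1 mean. It stood at 1.82, 1.16 and 1.04 FPKM at 2 h, against 2.58, 2.42 and 2.66 FPKM in untreated 0 h cells, and the groups did not overlap. The difference was -0.62 (SE 0.12; adjusted p = 0.0061, limma), and without 2 h replicate 3 the adjusted p was 0.0588. The 2 h call was also lost in a fit of only the libraries compared. At 4 h the values were 0.543, 0.369 and 0.646 FPKM, all below the lowest value at any other time. The 4 h mean was 0.203 times that of untreated cells, a difference of -1.23 with a limma adjusted p of 5.61e-08 that passed in all 17 alternative settings run.

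Ier3 then came back within 2 hours. It averaged 2.02 ± 0.0396 FPKM at 6 h (SD, n = 3), which did not pass against untreated cells (difference -0.23; adjusted p = 0.115, limma). It passed as lower without the 4 divergent libraries (-0.21; adjusted p = 0.022), with library weights (adjusted p = 0.0181) and with both untreated groups as control (-0.37; adjusted p = 0.0084). At 8 h it stood at 3.15, 3.02 and 3.97 FPKM, above all 3 untreated 0 h libraries, with a difference of 0.30 (adjusted p = 0.0478, limma). That call was lost without any 1 of the 3 untreated 0 h libraries or of 8 h replicates 1 and 3 (adjusted p = 0.0621 to 0.206) and under median-of-ratios scaling (difference 0.18, adjusted p = 0.28). The 10 h comparison did not pass (adjusted p = 0.126, limma).

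The Ier3 promoter is shown up to the base before the GENCODE transcript start, chr17:35821463-35821683 (plus strand):

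Ier3: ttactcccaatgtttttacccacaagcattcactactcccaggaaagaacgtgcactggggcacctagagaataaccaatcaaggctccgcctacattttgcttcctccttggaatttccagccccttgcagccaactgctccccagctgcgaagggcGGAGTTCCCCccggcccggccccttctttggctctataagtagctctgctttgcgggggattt

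A match to the NF-kB site lay on the minus strand at bases -92 to -83 from the RefSeq start, and 7.25% of all windows held such a match. No CArG box, TGACG core or AP-1 site matched in the 250-base window.

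Rhob encodes a small GTPase with roles in endosome traffic and in the response to DNA damage. It stood at 9.53, 8.71 and 8.39 FPKM at 2 h, against 5.29, 6.95 and 7.32 FPKM in untreated 0 h cells. The 2 h values were all higher, but the difference of 0.40 did not pass (adjusted p = 0.0516, limma). It passed without the 4 divergent libraries (0.43; adjusted p = 0.025), without untreated 0 h replicate 3 (adjusted p = 0.0148), with library weights, with the GC and length correction and with a filter of 5 FPKM (adjusted p = 0.00331, 0.0075 and 0.0466). At 4 h Rhob stood at 2.92, 3.30 and 2.47 FPKM, below every library of the other groups. The 4 h mean was 0.445 times that of untreated cells (difference -0.94; adjusted p = 2.44e-07, limma), and at 6 h the mean of 4.48 FPKM was still lower (difference -0.45; adjusted p = 0.000935, limma). The 6 h call was lost in a fit of only the libraries compared (adjusted p = 0.0666).

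Between 6 and 8 h Rhob crossed its starting level. It stood at 12.9, 12.2 and 15.3 FPKM at 8 h, all above the untreated libraries, a difference of 0.95 (SE 0.10; adjusted p = 1.75e-07, limma). The 10 h mean was 14.8 ± 0.820 FPKM against 6.52 ± 1.08 FPKM in untreated 0 h cells (SD, n = 3 each), a difference of 1.08 (adjusted p = 5.68e-08, limma). The 4, 8 and 10 h calls passed in all 18 alternative settings run. Apart from Ier3, whose call as higher at 8 h passed in 6 of 17 alternative settings, only Rhob passed both ways against untreated cells. Its promoter window chr12:8500010-8500259 (minus strand) is shown as a contrast to those above, since none of the motifs searched matched apart from a GC box at bases -219 to -214, and GC boxes occurred in 32.7% of all windows:

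Rhob: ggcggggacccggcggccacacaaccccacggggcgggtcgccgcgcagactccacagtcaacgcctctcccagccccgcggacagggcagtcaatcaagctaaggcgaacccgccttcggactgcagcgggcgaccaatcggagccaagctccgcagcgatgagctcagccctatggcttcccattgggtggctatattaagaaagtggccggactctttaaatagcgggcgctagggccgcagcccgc

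Zfp36 encodes tristetraprolin, an RNA-binding protein that speeds the decay of mRNAs with AU-rich elements, among them several immediate early mRNAs. It was higher on 2 occasions. At 2 h it stood at 1.99, 2.18 and 2.71 FPKM, against 1.36, 1.25 and 1.38 FPKM in untreated 0 h cells, a difference of 0.50 (SE 0.09; adjusted p = 0.0046, limma). The 2 h call was lost in a fit of only the libraries compared. At 4 h Zfp36 was at 1.45, 1.14 and 1.30 FPKM, overlapping the untreated values (adjusted p = 0.914, limma). The step between 2 and 4 h was itself past the test (-0.52; adjusted p = 0.000235, limma).

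Zfp36 then returned to 2.09 ± 0.170 FPKM at 6 h, 2.77 ± 0.277 FPKM at 8 h and 2.82 ± 0.264 FPKM at 10 h (SD, n = 3 each). The 6, 8 and 10 h differences from untreated 0 h cells were 0.41, 0.69 and 0.71, with limma adjusted p of 0.00107, 3.84e-06 and 5.23e-06, and each passed in all 17 alternative settings run. Most of the Zfp36 promoter window lies within an annotated transcript, so only the stretches around 2 matches are given, chr7:28379267-28379296 with a CArG box at bases -58 to -49 and chr7:28379315-28379343 with an EGR site at bases -105 to -97, both read on the minus strand:

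Zfp36 CArG box: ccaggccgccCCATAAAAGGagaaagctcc

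Zfp36 EGR site: gagctacgccGCGGGGGCGcgtcccggaa

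Ier5 encodes a nuclear protein that takes part in the heat shock response. It stood at 1.12, 1.03 and 0.996 FPKM at 2 h, against 0.654, 0.668 and 1.06 FPKM in untreated 0 h cells. Only untreated replicate 3, a divergent library, was as high as the treated ones, and the difference of 0.20 did not pass (adjusted p = 0.586, limma). The means stayed at 1.05 and 1.02 FPKM at 4 and 6 h. At 8 h Ier5 averaged 1.30 ± 0.0416 FPKM (SD, n = 3) with a difference of 0.36 (adjusted p = 0.00272, limma), which was 0.19 under the correction for GC content and length (adjusted p = 0.171). At 10 h Ier5 stood at 1.68, 1.52 and 2.13 FPKM, all above the untreated libraries, with a ratio of means of 2.23 (difference 0.63; adjusted p = 1.74e-05, limma). In a fit of only the libraries compared the 8 and 10 h calls were lost (adjusted p = 0.0965 and 0.0703). The 4 and 6 h differences of 0.20 and 0.18 passed without the 4 divergent libraries (0.30 and 0.28; adjusted p = 0.00342 and 0.00469) and with library weights (adjusted p = 0.000501 and 0.000484).

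Ier2, which encodes a nuclear regulator of transcription, had the highest level of the members per length, 56.2 to 95.1 FPKM over the 27 libraries. It stood at 95.1, 72.3 and 68.5 FPKM at 2 h, against 58.3, 59.9 and 94.1 FPKM in untreated 0 h cells, and the groups overlapped. The difference of 0.17 did not pass (SE 0.14; adjusted p = 1, limma). The highest values in the untreated 0 h, 2 h, 8 h and 10 h groups were each in the divergent library of that group. The longest Ier2 transcript has a GC content of 60.9%, the highest of the 10 members. At 4 h the difference of -0.07 changed sign without the 4 libraries (0.15; adjusted p = 0.0464) and with library weights (0.14; adjusted p = 0.0401), so no direction is given for Ier2 at 4 h.

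**Figure D4:**
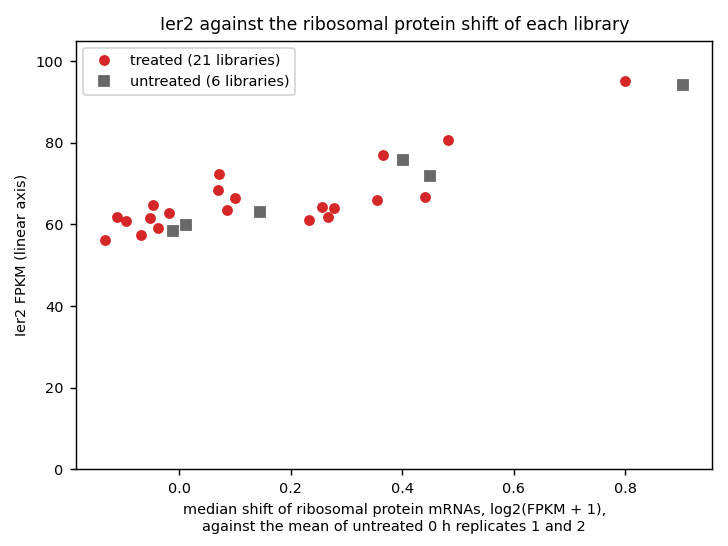
Ier2 FPKM (linear y axis that starts at 0) of each of the 27 libraries against the median log2(FPKM + 1) shift of ribosomal protein mRNAs from untreated 0 h replicates 1 and 2 (x axis), in red for 21 treated and grey for 6 untreated libraries. The 2 libraries at the far right, 2 h replicate 1 and untreated 0 h replicate 3, held 95.1 and 94.1 FPKM.

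The steps between neighbouring treated times, which do not use the untreated libraries, placed the changes. Between 0.5 and 2 h, 3 members passed (1.17% of all genes, 0.367% higher and 0.801% lower): Egr1 by 3.01, Rhob by 0.41 and Ier3 by -0.51. The Rhob step was lost when any of the 6 libraries was left out (adjusted p = 0.0729 to 0.235), and the Ier3 step when any but 2 h replicate 1 was (adjusted p = 0.0639 to 0.146). Between 2 and 4 h, 6 of 8 passed (20.1% of all genes, 10.2% higher and 9.89% lower), with Egr1, Ier3, Rhob and Zfp36 falling and Nr4a1 and Arc rising, and all 6 passed whichever library was left out. Without the 4 divergent libraries the Zfp36 step of 0.32 between 0.5 and 2 h was 0.39 and passed (adjusted p = 0.0384).

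Between 4 and 6 h, 4 members rose (20.1% of all genes passed, 11.6% higher), namely Ier3 by 0.99, Rhob by 0.50, Zfp36 by 0.43 and Arc by 0.21. The Arc step was lost when any of the 6 libraries was left out (adjusted p = 0.0905 to 0.141). Without the 4 divergent libraries the steps of Egr1 (-0.27) and Nr4a1 (-0.21) passed too (adjusted p = 0.0452 and 0.0105). Between 6 and 8 h, Rhob rose by 1.39, Ier3 by 0.53 and Zfp36 by 0.29, and Egr1 fell by 0.53 (24.1% of all genes passed, 18.1% higher and 6.02% lower). The Zfp36 step was lost without any 1 of 6 h replicates 1 and 3 and 8 h replicates 2 and 3 (adjusted p = 0.0641 to 0.112) and without the 4 divergent libraries (adjusted p = 0.0587). Between 8 and 10 h no member passed by limma, none had an unadjusted p under 0.05 apart from Ier5, and 5.37% of all genes passed.

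**Figure D5:**
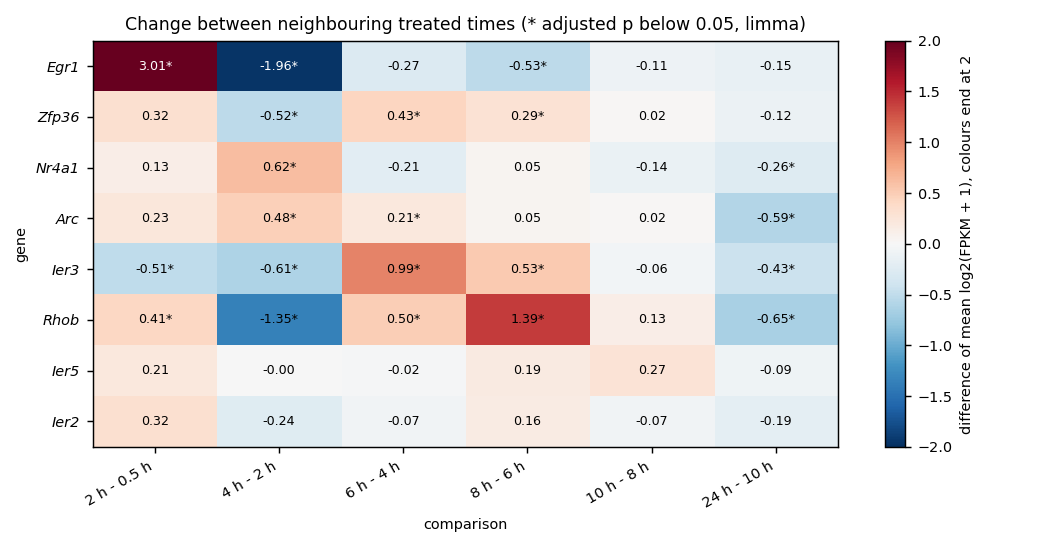
Difference of mean log2(FPKM + 1) between each treated time and the treated time before it (columns) for the 8 tested genes (rows); an asterisk marks an adjusted p below 0.05 by limma. Between 2 and 4 h Egr1 and Rhob fell by 1.96 and 1.35 while Nr4a1 rose by 0.62, and between 6 and 8 h Rhob rose by 1.39.

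At 24 h, treated cells were compared with untreated cells of the same age. Of the 8 tested members, 3 were higher and 1 lower, where 12.9% of all genes passed, 8.63% higher and 4.28% lower. Arc stood at 10.7, 11.1 and 11.8 FPKM in treated cells, against 9.10, 7.88 and 9.20 FPKM in untreated cells (difference 0.33; adjusted p = 0.00589, limma). Ier5 averaged 1.60 ± 0.158 FPKM in treated cells and 0.878 ± 0.141 FPKM in untreated cells (SD, n = 3 each; difference 0.47; adjusted p = 0.00173, limma). Both calls passed in every alternative setting run. Zfp36 stood at 2.42, 2.82 and 2.27 FPKM in treated cells, against 1.55, 1.68 and 2.04 FPKM in untreated cells (difference 0.35; adjusted p = 0.0161, limma).

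Ier3 was the member that was lower at 24 h, with 1.99, 2.31 and 2.04 FPKM in treated cells, against 3.47, 3.12 and 3.28 FPKM in untreated cells (difference -0.46; adjusted p = 0.0121, limma). The groups did not overlap. The Ier3 call was lost without treated replicate 1 or untreated replicate 1 (adjusted p = 0.0514 and 0.0538), and the Zfp36 call without treated replicate 2 or untreated replicate 1 (adjusted p = 0.0959 and 0.0893). Nr4a1, Rhob and Egr1 were above all untreated 24 h libraries in each treated library but did not pass (limma adjusted p of 0.118, 0.323 and 0.342). Nr4a1 passed without the 4 divergent libraries, none of which is in these groups and which bear on the spread alone (adjusted p = 0.0144), with library weights, with the GC and length correction and with both untreated groups as control (adjusted p = 0.0193, 0.00605 and 0.0137). Ier2 stood at 57.5, 56.2 and 60.7 FPKM in treated cells, against 75.8, 63.2 and 71.9 FPKM in untreated cells. Every treated library was below every untreated one, and the difference of -0.27 did not pass (adjusted p = 0.206, limma), but it did without the 4 divergent libraries, with library weights and in a fit of only the libraries compared (adjusted p = 0.000591, 0.000209 and 0.0292). The ribosomal protein shifts of these Ier2 libraries were -0.133 to -0.068 in treated cells and 0.144 to 0.45 in untreated cells, and their part in the difference was not tested. Egr2 was listed at 0 to 0.0238 FPKM in treated cells and at 0 to 0.0583 FPKM in untreated cells. Egr3 was listed at 0.0220 to 0.0863 FPKM in treated cells and at 0.0125 to 0.0384 FPKM in untreated cells.

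For 4 members the effect at 24 h differed from that at 10 h by a test of the difference itself, in which 8.7% of all genes passed, 5.75% with a negative value. The difference of effects was -0.94 for Rhob, -0.88 for Arc, -0.70 for Ier3 and -0.49 for Nr4a1 (limma adjusted p of 0.000142, 1.23e-05, 0.00936 and 0.00936). For Zfp36, Ier2, Ier5 and Egr1 it was -0.37, -0.21, -0.16 and -0.16 and did not pass (limma adjusted p of 0.089, 0.656, 0.556 and 0.717). Without the 4 divergent libraries Zfp36 and Ier2 passed (adjusted p = 0.0417 and 0.00813). The differences of effects compare 24 h cells with their own untreated group and 10 h cells with the untreated 0 h group. Among treated cells alone, the same 4 genes were lower at 24 h than at 10 h, by 0.65 for Rhob, 0.59 for Arc, 0.43 for Ier3 and 0.26 for Nr4a1, where 19.3% of all genes passed, 11.2% lower. The Ier3 step was lost without 10 h replicate 3 (adjusted p = 0.0961) and the Nr4a1 step without any 1 of 10 h replicates 1 and 3 and 24 h replicates 2 and 3 (adjusted p = 0.0521 to 0.171).

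Between untreated cells at 24 h and at 0 h no member passed by limma, where 0.705% of all genes passed, and 5 of the members had an unadjusted p under 0.05, as did 1285 of all genes. Arc stood at 9.10, 7.88 and 9.20 FPKM at 24 h, against 6.48, 7.56 and 6.79 FPKM at 0 h (difference 0.29; adjusted p = 0.0794, limma). Ier3, Nr4a1, Rhob and Zfp36 were likewise higher in all 3 untreated 24 h libraries than in all 3 untreated 0 h libraries, by 0.23 to 0.29. Without the divergent libraries Arc, Ier2, Ier3, Nr4a1 and Rhob passed here, and with library weights 7 members did, but 4105 and 5021 of all genes passed in those fits, against 96 in the one above.

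Other immediate early genes were set beside the members. Of 34 on the list that are in the tables, 30 were tested, and at 2 h 8 were higher and 6 lower. Of all genes 0.499% were higher and 0.566% lower at 2 h. Fos, a subunit of the AP-1 transcription factor, averaged 11.5 FPKM at 2 h against 0.935 FPKM in untreated 0 h cells (difference 2.71; adjusted p = 5.08e-12, limma). Jun, its partner, averaged 7.51 FPKM against 2.08 FPKM (difference 1.47), and the stress-induced factor Atf3 9.28 FPKM against 2.73 FPKM (difference 1.46). The MAP kinase phosphatase Dusp1 averaged 15.0 FPKM against 5.66 FPKM (difference 1.26). The median over the list was 0.04 at 2 h, against 0.02 over all genes.

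At 6 h, 15 genes of that list were higher and 7 lower, against 22.3% and 20% of all genes. The median was 0.29, against 3e-04 over all genes. The AP-1 subunit Fosl1 averaged 8.21 FPKM against 0.100 FPKM in untreated cells (difference 3.05; adjusted p = 4.43e-14, limma), and the small Maf factor Maff 7.5 FPKM against 1.03 FPKM (difference 2.07). Plk2, a kinase that is also a p53 target, averaged 46.8 FPKM against 13.7 FPKM (difference 1.73), and Fos was still at 4.53 FPKM (difference 1.53). The list had 11 higher and 12 lower at 4 h, 16 and 4 at 8 h, 18 and 2 at 10 h, and 8 and 0 at 24 h. At these times 14.2%, 29.2%, 22.2% and 8.63% of all genes were higher and 12.1%, 11.6%, 9.43% and 4.28% lower.

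Feedback inhibitors of MAP kinase signalling had 3 of 12 higher at 2 h (Dusp1, Dusp4 and Dusp8) and none lower. Of all genes 0.499% were higher and 0.566% lower at that time. At 4 h, 4 were higher and 4 lower, where 14.2% of all genes were higher and 12.1% lower. At 6 h, 8 were higher and none lower, where 22.3% of all genes were higher and 20% lower. Among the 8 were Dusp2 (2.05 FPKM against 0.248 FPKM in untreated cells, difference 1.28) and Spry4 (17.4 FPKM against 10.2 FPKM, difference 0.72). At 8 h 10 were higher and at 10 h 8, against 29.2% and 22.2% of all genes. At 24 h none passed in either direction, where 12.9% of all genes passed. Of 23 genes for the MAP kinases, SRF, CREB and their partners, none passed at 2 h, where 1.07% of all genes passed. At 6 h 3 of the 23 were higher and 5 lower. The share higher was below that of all genes at that time (22.3%), and the share lower was near that of all genes (20%). Mapk9 was at 0.62 and the kinases Map2k1 and Map2k2, which activate ERK, at -0.41 and -0.39.

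NAB1 and NAB2 are co-repressors that bind EGR proteins. Nab2 averaged 6.54 FPKM at 2 h, against 6.08 FPKM in untreated 0 h cells (adjusted p = 1, limma), and was lower at 4 h with 3.36 FPKM (difference -0.70) and at 6 h with 3.43 FPKM (difference -0.68; adjusted p = 2.4e-06, limma). At 24 h it was lower in treated cells, with 5.42 FPKM against 6.80 FPKM in untreated cells (difference -0.28; adjusted p = 0.0417, limma). Nab1 was higher at 8 h (0.47; adjusted p = 0.0306, limma) and at 10 h (0.63; adjusted p = 0.0066, limma).

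Of 9 paralogs of the members, 5 were tested and none passed at 2 or 4 h. Of all genes 1.07% passed at 2 h, 26.3% at 4 h and 42.3% at 6 h. At 6 h Zfp36l1, a relative of Zfp36, was higher (0.26; adjusted p = 0.0335, limma), while Rhoc and Rhoa, relatives of Rhob, were lower (-0.51 and -0.38; limma adjusted p of 0.0122 and 0.00314). Of 12 target genes of p53, the transcription factor of the DNA damage response, none passed at 2 h, where 1.07% of all genes passed. At 4 h and at 6 h 11 were higher and none lower, against 14.2% and 22.3% of all genes higher. The median was 0.98 at each time. At 6 h Mdm2, the ubiquitin ligase that acts on p53, averaged 140.3 FPKM against 34.8 FPKM in untreated cells (difference 2.02; adjusted p = 2.38e-09, limma).

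The genes whose 9 group means followed a member most closely are given as a description, with Pearson's r of log2(FPKM + 1) among 1449 genes whose group means spanned at least 1. The 9 means share libraries with the comparisons above, so no test is given. Egr1 was closest to Fos (0.928), Gadd45g (0.881) and Atf3 (0.80). Rhob was closest to Mllt11 (0.975), Ier3 to Mepce (0.983), Arc to Aoc2 (0.977), Nr4a1 to Rell1 (0.963), Ier5 to S100a6 (0.968), Zfp36 to Rtl8c (0.931) and Ier2 to Haus5 (0.880). Among the members themselves, Nr4a1 and Arc were the closest pair (0.920), followed by Rhob and Zfp36 (0.80) and Ier5 and Zfp36 (0.797). Egr1 and Ier3 had a negative r (-0.604), with Egr1 high and Ier3 low at 2 h, although both fell between 2 and 4 h.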

How the data were processed

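Poly(A) RNA of 27 libraries was made into stranded TruSeq libraries and sequenced from both ends, per the labels' protocols. FPKM values per gene are those the authors deposited, in 7 tables of 38352 rows joined by gene ID; per the submitters' processing notes the tools were cutadapt, FastQC, HISAT2, StringTie and edgeR, with build mm10. No source used here states versions, annotation or strand setting. Ratios (fold), log2 fold changes, p-values and q-values are the authors' own, per the file headers, and only the q-value of Egr2 and marks of change are quoted.

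The values were tested with limma 3.58.1 (R 4.3.3, trend, Benjamini-Hochberg adjustment) on log2(FPKM + 1), for the 13614 genes that reached 1 FPKM in 3 libraries, with a mean per group over all 27 libraries. The fit was tested on simulated data. FPKM hold no read counts, so no counting interval is given. The labels describe 3 time courses but do not say that a replicate number marks one, so libraries were not paired in this fit. The p-values measure the spread between libraries within groups.

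The members and lists were chosen with earlier results of these data known, so counts over them are descriptions. All 10 members were in the rule for every comparison; the values that matter are in the text and the others in the plots. Of the gene lists, the genes named are among the up to 4 with the largest change at 2 h and at 6 h. For likeness the 3 genes of highest r per member were taken, and part of them are named. Gadd45g is named by likeness. Nab1, Pou5f1, Alb, Camk2a and Gm44710 were named outside this rule, after their values were seen.

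Alternatives were another pseudocount (0.1), filters of none and of 5 FPKM, scaling by median of ratios, the 2 untreated groups merged as control, fits of the compared libraries alone, no mean-variance trend, a replicate block, library weights, leaving out libraries and, added after seeing the data, a GC and length correction. The peroxide dose is that of the treatment protocol, since the design text gives another unit prefix.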

Additional observations from a re-analysis of the deposited data

Results flagged for a closer look

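The effect of treatment differed between 24 h and 10 h for 4 of the genes, by limma's test of the difference of effects (24 h against untreated 24 h, minus 10 h against untreated 0 h). The difference was -0.7012 for Ier3 (SE 0.17; adjusted p = 0.00936), with treated cells lower in 3 of 3 libraries at 24 h. It was -0.4898 for Nr4a1 (SE 0.12; adjusted p = 0.00936), which missed the threshold under median-of-ratios scaling (adjusted p = 0.0528) and in a fit of only the libraries compared (adjusted p = 0.0505). It was -0.8789 for Arc (SE 0.10; adjusted p = 1.23e-05) and -0.9383 for Rhob (SE 0.14; adjusted p = 0.000142). The untreated group itself differs between these times, and Arc, Ier3, Nr4a1 and Rhob were each higher in untreated 24 h cells than in untreated 0 h cells in 3 of 3 libraries, without passing the test. With 3 libraries in each group, no library was tested as an outlier.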

How the results depend on the processing

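Of the differences of single members in single comparisons, 1211 kept their direction and side of the threshold in the settings other than leaving out a library, 56 moved past it, 49 were lost and 2 reversed. Both reversed values were Ier2 at 4 h, 0.137 with library weights and 0.149 without the 4 divergent libraries, and the cause was not tested. Sign changes of values past the threshold in neither fit were not counted. The count of members at 2 h, 5, was 3 with both untreated groups as control, 1 in a fit of only the libraries compared (which has fewer samples to estimate the spread) and 8 with library weights. In these 2 h fits 256, 5 and 1655 of all genes passed, against 145 in the fit used above. With no filter all 10 members were tested, and 6 passed at 2 h, 5 higher and 1 lower, where 157 of all genes passed. Between 2 and 4 h 7 passed with no filter, 2 higher and 5 lower, where 3216 of all genes passed. Single values of Egr2 and Egr3 in that fit are not given. A fit of only the libraries compared gave 3 at 6 h, 4 at 8 h, 1 between 0.5 and 2 h and 2 between 10 and 24 h. There 2650, 1522, 31 and 2217 of all genes passed, against 5761, 5545, 159 and 2633 in the fit used above. A filter of 5 FPKM, which leaves 5 members to test, gave 4 at 8 h, 3 at 10 h, 1 at 24 h, 2 between 4 and 6 h and 2 between 6 and 8 h. With it 3396, 2611, 1091, 1822 and 2012 of all genes passed, against 5545, 4309, 1757, 2739 and 3285 with the filter of 1 FPKM. Between 0.5 and 2 h, median-of-ratios scaling gave 1, the replicate block with scaling 1 and library weights 6. Of all genes 199, 209 and 2399 passed in those fits, against 159 in the fit used above. In untreated culture the count of 0 was 7 with library weights, 5 without the 4 libraries and 2 with the GC and length correction. For untreated culture 5021, 4105 and 419 of all genes passed in those fits, against 96 in the fit used above. The replicate block alone lost Rhob between 0.5 and 2 h (adjusted p = 0.0582) and Arc between 4 and 6 h (adjusted p = 0.0549) and moved no count of members by over 1.5 times. The labels do not say that a replicate number marks a time course, and the numbers were not taken as pairs because only 35 of 108 same-numbered pairs of libraries correlated over 0.1: the deviations of same-numbered libraries correlated at -0.799 to 0.797 (median 0.037), and, as a hint from the data, 15 of 27 libraries correlated best with their own number.

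Leaving out a library of the groups compared gave 4 to 6 members at 2 h, 5 to 6 at 4, 6 and 10 h, 6 to 7 at 8 h and 2 to 4 at 24 h. Of all genes 101 to 308 passed at 2 h, 2925 to 4413 at 4 h and 4900 to 6013 at 6 h. At 8, 10 and 24 h 4369 to 5929, 3063 to 5062 and 882 to 1686 of all genes passed. It gave 1 to 2 members between 0.5 and 2 h, 3 between 4 and 6 h, 3 to 4 between 6 and 8 h and 2 to 4 between 10 and 24 h. For these steps 62 to 86, 1922 to 2112, 2560 to 2844 and 1949 to 2193 of all genes passed. Of the single values, 720 were kept, 3 moved past the threshold, 45 were lost and 0 reversed. Low FPKM limit what can be said of Egr2, Egr3 and late Egr1.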
